A study of Mus musculus with 6 samples.

Results

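The genes described here encode the proteins of the cytosolic ribosome, together with a few close copies that share their symbols. They were taken by symbol, as genes whose name starts with Rpl or Rps followed by a digit, plus Rpsa, Rplp0, Rplp1 and Rplp2, without the Rps6k kinases and without pseudogenes. RefSeq's gene table for GRCm38.p6 lists 89 such genes. Of these, 87 had a probe on the array, and 85 had a probe well above background on all 6 arrays. These 85 are among 15309 genes tested. Their 169 probes were kept. The testis-type copies Rpl10l and Rpl39l were not measured, since none of their probes was above background on all arrays, and Rpl37 and Rps27rt had no probe that the table names. A further 3 probes, among them 1 of Rps15a and 1 of Rps27a, fell below background on some or all arrays, while another probe of the same gene was kept.

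Whole-kidney RNA of male C57BL/6J mice was hybridised to single-colour Agilent arrays, 1 per animal. There were 3 mice labelled Control and 3 labelled iNampt-conditional knockout. Nampt makes the precursor of NAD in the salvage pathway, and the series title places the study in the renal proximal tubule. The labels used here name neither the Cre driver, the genotype of the controls nor the age of the mice, and nothing in them says that these 6 animals were diabetic. Since the whole organ was taken, fewer cells of a type and less RNA per cell cannot be told apart, and a change in the tubule alone is diluted by the other cells.

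A ribosome is built from a small subunit, which reads the messenger RNA, and a large subunit, which joins the amino acids. Each holds 1 copy of most of its proteins, and the cell makes them in matched amounts. Their messenger RNAs are among the most abundant in any tissue and typically begin with a C followed by a run of pyrimidines, the terminal oligopyrimidine (TOP) tract, through which mTORC1 and the binding protein Larp1 set how strongly they are translated. That control acts on translation, which an array of RNA levels does not measure. In kidney, growth of tubules after loss of the other kidney or in early diabetes is a known setting of mTORC1 activity and of phosphorylation of Rps6.

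RefSeq lists 77 start-site windows for 65 of the 85 genes in GRCm38.p6, each running from 250 bases before to 50 bases after the start. The stretches below run from 40 bases before to 20 after. They show the start sites of 4 subunit genes, picked because they carry the tract. The other 4 genes shown lie apart from them by role or by value in the kidneys. Capitals mark a C followed by at least 4 bases that are C or T, beginning within 2 bases of the listed start. All are written 5′ to 3′ on the strand of the gene.
Rps6, small subunit, chr4:86857348-86857407, minus strand: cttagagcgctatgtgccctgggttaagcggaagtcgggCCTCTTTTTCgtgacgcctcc
Rps24, small subunit, chr14:24490638-24490697, plus strand: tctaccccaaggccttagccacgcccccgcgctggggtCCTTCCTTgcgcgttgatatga
Rpl15, large subunit, chr14:18270967-18271026, minus strand: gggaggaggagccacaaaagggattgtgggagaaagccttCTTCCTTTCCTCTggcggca
Rplp2, stalk of the large subunit, chr7:141447611-141447670, plus strand: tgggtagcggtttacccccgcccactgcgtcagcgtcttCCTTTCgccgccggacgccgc
Rps27l, paralogue of Rps27, chr9:66946046-66946105, plus strand: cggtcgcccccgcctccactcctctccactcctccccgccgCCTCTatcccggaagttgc
Rpl22l1, paralogue of Rpl22, chr3:28805468-28805527, plus strand: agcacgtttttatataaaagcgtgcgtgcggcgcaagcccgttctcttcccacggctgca
Rps19bp1, not a subunit, chr15:80264287-80264346, minus strand: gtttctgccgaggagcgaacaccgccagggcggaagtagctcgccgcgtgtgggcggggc
Rpl3l, paralogue of Rpl3, chr17:24727786-24727845, plus strand: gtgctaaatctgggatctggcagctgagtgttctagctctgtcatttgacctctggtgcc

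The capitals are long in Rps6 and Rpl15 and short in Rps27l. In Rpl22l1, Rps19bp1 and Rpl3l no such run begins within 2 bases of the listed start. Rpl22l1 does hold the run ctcttccc just past that limit, so its lack of capitals rests on the 2 bases allowed. Over the 66 windows of core subunit genes a run within the limit was found in 21, or 31.8%, against 8.96% of all 32851 windows in the table. Of the 11 windows of the remaining members, 3 held it, or 27.3%, a share close to that of the core windows. These were in Rps27l and in Rpl32l and Rps23rg1, whose runs of 10 and 9 bases are not shown above. In the full windows, searched on both strands, the ETS-family motif CCGGAAG was in 36.4% of core windows and 8.86% of all, and the Sp1 box GGGCGG in 60.6% and 35.7%. The YY1-type motif AAGATGGC was in 10.6% and 2.75%, the E-box CACGTG in 12.1% and 7.15%, and the TATA motif TATAAA in 9.09% and 13.6%. None of these motifs contains another, though sites of different motifs can overlap. Some genes have several windows, and a match describes these letters only.

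Nampt itself, the targeted gene, read 2.775, 2.591 and 2.646 in the 3 controls, as log2 signal relative to the 75th percentile of each array, which is the scale of all levels here. The knockouts read 1.804, 1.502 and 1.531, all below the controls. Nampt thus fell by 1.06 ± 0.10 (SE) in log2 units, with an adjusted p of 0.0431 by limma. In 8 of 17 alternatives, among them quantile normalisation, a block on slide row and dropping any array but knockout 1, its adjusted p was above 0.05 (0.0579 to 0.180), with the difference between -0.87 and -1.10. Between 57.3% and 63.3% of spots were well above background and none was saturated. Knockouts 2 and 3 lay in the second row of the slide and the other 4 arrays in the first. Each value given here with a block on slide row therefore rests on knockout 1 against the 3 controls. All 16 proximal tubule markers, the 8 of the loop and distal tubule and the 6 of the podocyte were above background on every array. Each array is labelled as its own mouse. The p-values rest on the spread among these few animals, whose number limits the precision.

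No ribosomal protein gene passed the test. By limma with Benjamini-Hochberg adjustment over all genes, 0 of the 85 had an adjusted p under 0.05, where 0.17% of all genes tested did (0.105% higher and 0.0653% lower in the knockouts), and the smallest adjusted p among them was 0.334. At an unadjusted p under 0.05 there were 2 of 85, against 12.8% of all genes. The 2 were Rpl22l1, which was higher in the knockouts, and Rps19bp1, which was lower. They were also the only members whose 3 knockouts all lay on one side of the 3 controls, where 19.5% of all genes tested had groups that did not overlap (9.04% higher and 10.5% lower). Neither encodes a standard subunit.

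The core genes lay close to 0. Among the 76 core subunit genes, 31 of the small subunit, 42 of the large and the 3 of its stalk, the log2 difference of knockout minus control ran from -0.04 for Rps6 to 0.09 for Rps20, that is from 0.970-fold to 1.06-fold. It lay within 0.05 of 0 for 71 of them and within 0.1 for all 76. The 95% intervals of the core genes reached from -0.23 (Rps2) to 0.26 (Rps20), so that each of the 76 intervals lay within 0.32 of 0 on the log2 scale, as did those of 60.7% of all genes tested. For all 85 members the interval lay within 1.5-fold either way, where 84.4% of all genes did. Only those of Rpl3l, Rpl22l1 and Rps19bp1 passed 0.32. These intervals are per gene and are not widened for the number of genes. Blocking on slide row left 74 of the 76 within 0.32, and dropping knockout 1 left 75. The median standard error of a core gene was 0.055, against 0.073 over all genes. Over 995 other genes with a mean log2 signal of 5 or more it was 0.063. The differences of core genes had an SD of 0.026 among themselves, while those of all genes had 0.23 and those of these 995 had 0.10.

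**Figure D1:**
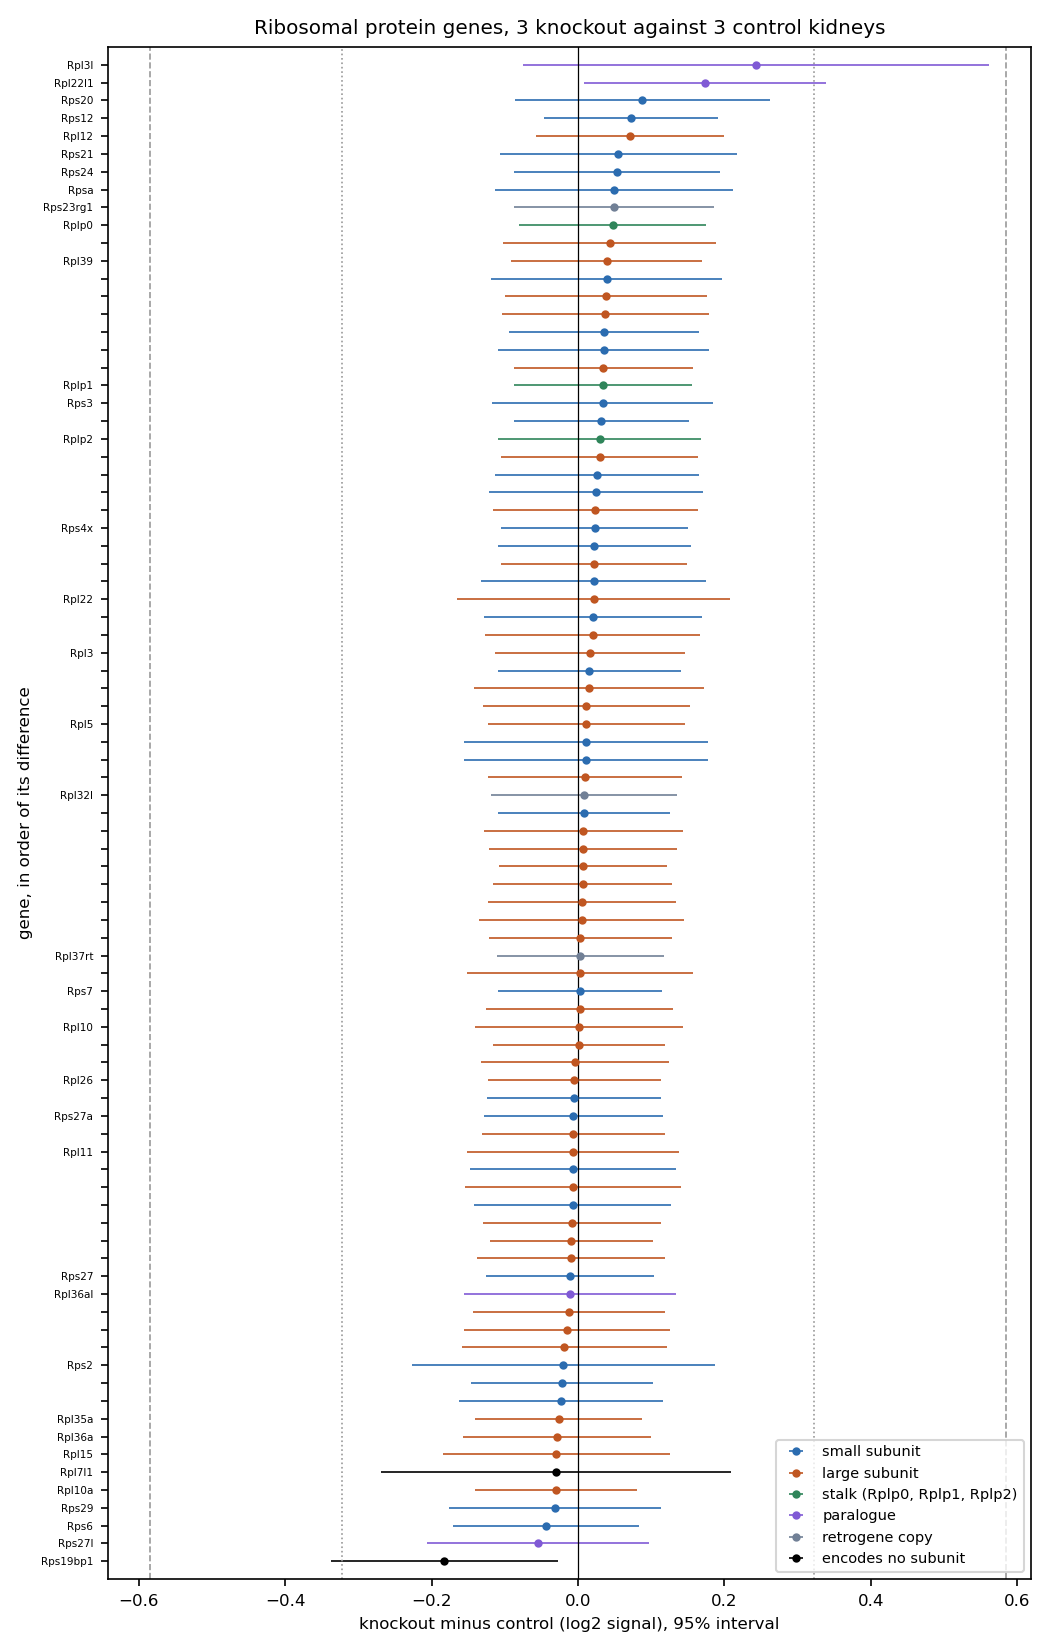
Knockout minus control log2 signal (x axis) of the 85 ribosomal protein genes (y axis, in order; genes the text describes are labelled), with 95% intervals from limma, coloured by role. Dotted and dashed lines mark log2 changes of 0.32 and 0.58 either way. All 76 core subunits lie between -0.04 and 0.09, and the outermost genes, Rpl3l, Rpl22l1 and Rps19bp1, are no core subunits.

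In the small subunit the log2 differences had a median of 0.021, with 21 of 31 genes above 0. Rps20, Rps12, Rps24, Rps21 and Rpsa had the largest positive values. Rps20 was at 7.64, 7.64 and 7.82 in the controls and 7.71, 7.83 and 7.82 in the knockouts, a difference of 0.09 ± 0.07 (SE; adjusted p = 0.674). Control 3 lay with the knockouts, and the groups overlapped. Rps12 was at 7.63, 7.62 and 7.71 against 7.69, 7.75 and 7.74, a difference of 0.07 ± 0.05 (adjusted p = 0.609). Here knockout 1 lay below control 3. Rps24, mutated in some families with Diamond-Blackfan anaemia, was at 0.05 ± 0.06, Rps21 at 0.06 ± 0.07 and Rpsa, also known as the laminin receptor, at 0.05 ± 0.07. The 3 knockouts of Rpsa, at 7.71, 7.71 and 7.70, were close together, while its controls ran from 7.57 to 7.78.

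Rps6, the subunit that S6 kinases phosphorylate, had the lowest value of all core genes. Its log2 signal was 6.65, 6.69 and 6.78 in the controls and 6.67, 6.68 and 6.65 in the knockouts, a difference of -0.04 ± 0.05 (SE; adjusted p = 0.789; 95% interval -0.17 to 0.08). The high control was again control 3, control 2 lay just above the knockouts, and control 1 lay among them. Its 3 probes lay between -0.04 and -0.0065. Rps29 was at -0.03 ± 0.06. Rps4x, the X-linked subunit gene, was at 0.02 ± 0.05. Rps27a, which is made as a fusion with ubiquitin, was at -0.0062 ± 0.050, with its knockouts at 7.22, 7.24 and 7.23 against 7.19, 7.21 and 7.31 in the controls. Rps27 was at -0.01 ± 0.05.

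In the large subunit, without its stalk, the median was 0.0052, with 27 of 42 genes above 0. Rpl12, which anchors the stalk, had the largest value, with 6.43, 6.40 and 6.48 in the controls and 6.44, 6.55 and 6.53 in the knockouts, a difference of 0.07 ± 0.05 (SE; adjusted p = 0.642). Knockout 1 lay among the controls. Rpl39 was at 0.04 ± 0.05. The lowest values were those of Rpl10a at -0.03 ± 0.05, Rpl15 at -0.03 ± 0.06, Rpl36a at -0.03 ± 0.05 and Rpl35a at -0.03 ± 0.05, with adjusted p from 0.829 to 0.885 for these 4. For Rpl15 the controls were 6.49, 6.51 and 6.68 and the knockouts 6.52, 6.55 and 6.52, so that control 3 alone stood apart. Rpl3, near the catalytic centre, was at 0.02 ± 0.05, Rpl10 at 0.0016 ± 0.058, Rpl22 at 0.02 ± 0.08 and Rpl26 at -0.0049 ± 0.048.

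Rpl5 and Rpl11 form a particle with the smallest ribosomal RNA and bind Mdm2 when assembly of the ribosome is disturbed, which stabilises p53. Rpl5 was at 5.21, 5.19 and 5.30 in the controls and 5.18, 5.28 and 5.26 in the knockouts, a difference of 0.01 ± 0.05 (SE; adjusted p = 0.955). Rpl11 was at 7.82, 7.83 and 7.97 against 7.89, 7.88 and 7.84, a difference of -0.0063 ± 0.059 (adjusted p = 0.977). In both genes control 3 was the highest array and the groups overlapped.

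The acidic stalk, where elongation factors dock, is made of Rplp0, Rplp1 and Rplp2, and all 3 were above 0. Rplp0, widely used as a reference gene in PCR, was at 8.19, 8.21 and 8.31 in the controls and 8.26, 8.30 and 8.29 in the knockouts, a difference of 0.05 ± 0.05 (SE; adjusted p = 0.767; 95% interval -0.08 to 0.17). Rplp1 was at 0.03 ± 0.05 and Rplp2 at 0.03 ± 0.06. Control 3 lay above all 3 knockouts for Rplp0 and Rplp2 and between them for Rplp1.

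The 9 members that are no core subunits, a split made after the values were seen, covered a wider range than the core genes. They are the 4 paralogues Rpl22l1, Rps27l, Rpl36al and Rpl3l, the 3 retrogene copies Rpl32l, Rpl37rt and Rps23rg1, and Rps19bp1 and Rpl7l1, which encode no standard subunit. A retrogene probe may also bind the near-identical RNA of its parent gene, so the signal of Rpl37rt and Rpl32l may be that of Rpl37 and Rpl32. The 3 retrogene copies lay between 0.0033 (Rpl37rt) and 0.05 (Rps23rg1). They, Rpl36al and Rpl7l1 lay inside the range of the core genes. The outermost, Rpl3l, Rps19bp1 and Rpl22l1, had control means of -2.01, 2.99 and 4.91, below the 5.23 of the dimmest core gene, Rpl5. Rps23rg1 and Rpl7l1, inside the core range, were dim too, at -0.31 and 0.13. The part of signal level in the wider range was not tested.

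Rpl22l1 encodes a paralogue that can take the place of Rpl22 in the large subunit. Its log2 signal was 4.93, 4.83 and 4.97 in the controls and 4.99, 5.17 and 5.10 in the knockouts, so that the lowest knockout lay just above the highest control. The difference was 0.17 ± 0.07 (SE; limma unadjusted p = 0.0420, adjusted p = 0.369; 95% interval 0.0087 to 0.34), or 1.13-fold. Over 17 alternative settings it ran from 0.08, when blocking on slide row, to 0.22, with adjusted p no lower than 0.168. Rpl22 was at 6.40, 6.23 and 6.48 against 6.33, 6.44 and 6.40, with overlapping groups. Its dimmer probe was at 0.14 ± 0.06 (adjusted p = 0.464 over all probes), with all 3 knockouts above the controls.

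Within each array the log2 difference between Rpl22l1 and Rpl22, set to a control mean of 0, was -0.01, 0.06 and -0.05 in the controls and 0.12, 0.18 and 0.15 in the knockouts. This ratio does not change when each array is scaled by a single factor, though quantile normalisation can change it. The groups did not overlap. By an exact two-sided permutation test p = 0.1, the smallest that 3 animals against 3 allow, and 0.267 adjusted over the 4 paralogue pairs compared. With the dimmer probe of Rpl22 the shift was 0.03 (exact p = 0.8) and the groups overlapped, so the result rests on the choice of Rpl22 probe. For Rps27l against Rps27 the shift was -0.04 (exact p = 0.2), for Rpl36al against Rpl36a 0.02 (exact p = 0.7) and for Rpl3l against Rpl3 0.23 (exact p = 0.2).

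Rps27l, a paralogue of Rps27 known as a p53 target, was at 6.19, 6.15 and 6.32 in the controls and 6.14, 6.22 and 6.15 in the knockouts, a difference of -0.05 ± 0.06 (SE; adjusted p = 0.773). Rpl36al was at -0.01 ± 0.06. Rpl3l, the striated-muscle form of Rpl3, was at -2.15, -2.09 and -1.79 against -1.57, -1.84 and -1.90, a difference of 0.24 ± 0.13 (adjusted p = 0.508; 95% interval -0.08 to 0.56). Its groups overlapped, and its interval was the widest of all 85. Blocking on slide row, which rests the value on knockout 1 against the controls in its row, gave 0.44, and dropping knockout 1 gave 0.14.

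Rps19bp1, which encodes a nucleolar protein known to bind Rps19 and to promote the activity of the NAD-dependent deacetylase Sirt1, was lowest of all members in its difference. It was at 2.95, 2.97 and 3.06 in the controls and 2.71, 2.85 and 2.87 in the knockouts, a difference of -0.18 ± 0.06 (SE; limma unadjusted p = 0.0285, adjusted p = 0.334; 95% interval -0.34 to -0.03), or 0.881-fold. All 3 knockouts lay below all 3 controls. Over 17 alternatives it ran from -0.28, when blocking on slide row, to -0.13, with adjusted p no lower than 0.226. Rpl7l1, which belongs to the nucleolus and to assembly of the large subunit, was at -0.03 ± 0.10, with its lowest value of -0.07 in knockout 1 and its highest of 0.26 in control 3.

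**Figure D2:**
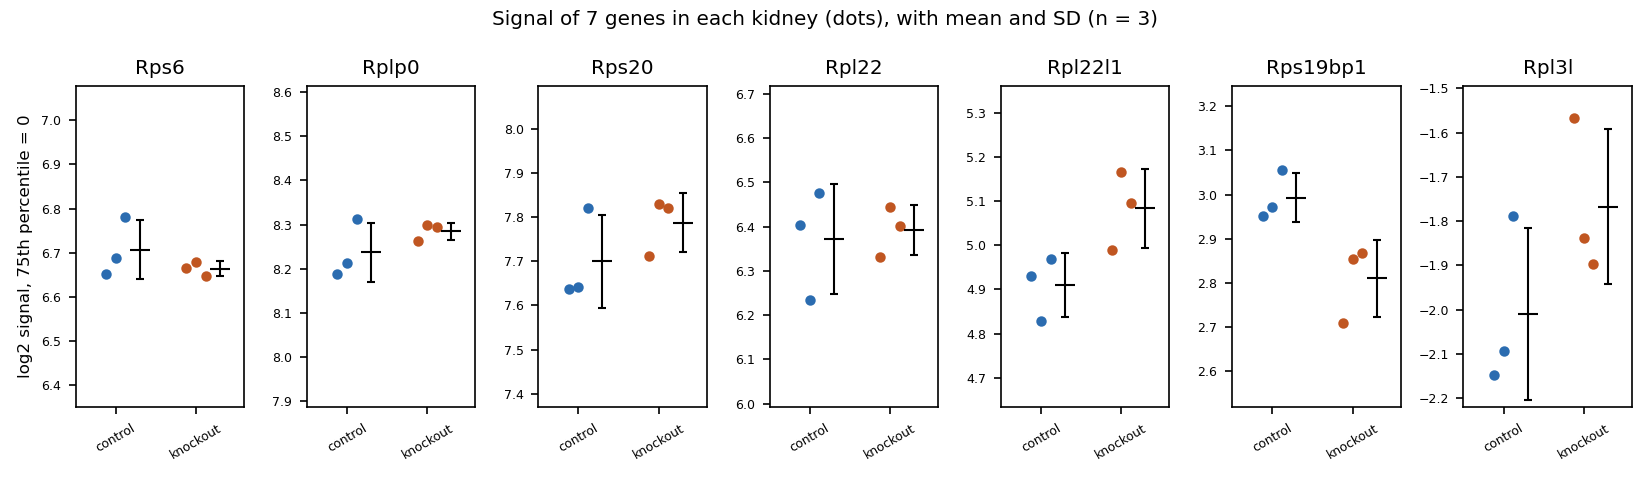
Log2 signal (y axis, 0 at the 75th percentile of each array) of 7 genes in each of 3 control and 3 knockout kidneys (dots), with the mean and SD, on axes of equal span. Groups are apart for Rpl22l1 and Rps19bp1 and overlap for Rps6, Rplp0, Rps20, Rpl22 and Rpl3l.

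The members shared a pattern over the animals that did not follow the groups. Control 3 held the highest value of 74 of the 85 genes, and controls 1 and 2 held it for 0. Set against the control mean, controls 1, 2 and 3 had medians over the 85 genes of -0.05, -0.03 and 0.08. Knockouts 1, 2 and 3 had -0.01, 0.03 and 0.01. All 3 knockouts lay between control 2 and control 3. As a result the SD over the controls was larger than that over the knockouts for 74 of the 85 genes, with medians of 0.070 and 0.028. The same array was highest for 33.2% of all genes tested and for 69.4% of the 995 other bright genes, whose median there was 0.08 as well. Proximal tubule markers had a median of 0.09 in control 3, with a summed signal, in units of each array's 75th percentile, of 3737 there, 3442 and 3453 in the other controls and 3514 to 3585 in the knockouts. Macrophage markers, all 9 of them above background on every array, had a summed signal of 45.7 to 53.7 in the controls and 60.3 to 64.8 in the knockouts. The 8 fibroblast and pericyte markers, all above background on every array, had a summed signal of 38.4 in control 3 and 52.3 to 66.0 on the other arrays, with a median of -0.48 in control 3. Among the 12 marker lists others varied as well. Of the 4 measured neutrophil markers, S100a8, S100a9 and Retnlg were lower in the knockouts without overlap, at log2 differences of -2.39, -2.34 and -1.16. Csf3r was at 0.02, and Retnlg was not above background on every array. By limma 0 of the 4 passed, and 10.5% of all genes were lower without overlap. The 7 erythroid markers above background on every array had a summed signal of 557 to 701 in the controls. In knockouts 1, 2 and 3 it was 616, 350 and 317. The 6 measured adipocyte markers summed to 39.1 to 66.2 in the controls and 21.3 to 61.3 in the knockouts. The part of these cell types in the pattern was not tested.

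The pattern depended on how the arrays were scaled. With quantile normalisation, which forces the same distribution on every array, control 3 was highest for 8 of the 85 genes, and the median SD over the controls was 0.026. The array medians were then -0.0067, 0.0061 and 0.0034 in the controls and 0.026, 0.027 and 0.029 in the knockouts. With this scaling 74 of 85 genes were above 0, where 56 were with the 75th percentile, and the median difference was 0.026 in place of 0.0079. The groups did not overlap for 23 genes that were higher and 1 that was lower, where 9.33% and 11.9% of all genes were so placed. By limma 0 of the 85 passed with this scaling, where 11 of all 15309 genes tested did. An unadjusted p under 0.05 was found for 2 of the 85 and for 2172 of all genes. The smallest adjusted p of a member was 0.207. With normexp background correction and quantile normalisation 69 genes were above 0, with 18 higher and 1 lower without overlap (9.1% and 10.9% of all genes). The share of all genes above 0 was 47.1%, 46.8% and 47.4% under these 3 settings in turn. No direction is given for the genes as a group, since the sign of the median depended on the arrays used. With slide row as a block, that is knockout 1 against the controls, the median was -0.01 and 51 of 85 genes were below 0. Without control 1 it was -0.01 with 58 below 0. It also lay below 0 without control 2 and without knockout 2.

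**Figure D3:**
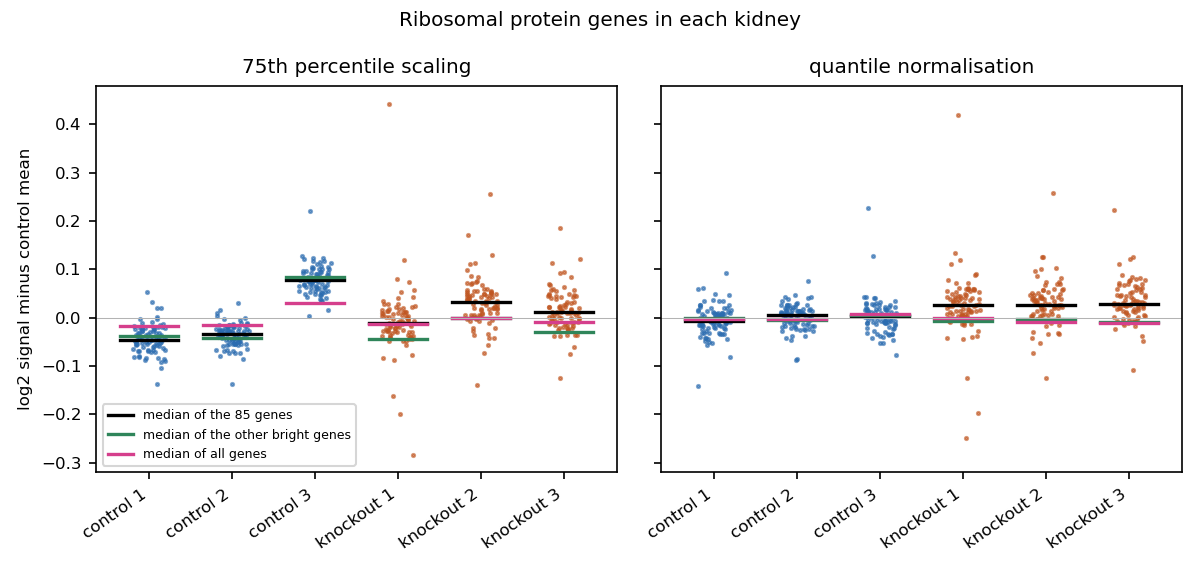
Log2 signal minus the control mean (y axis) of the 85 ribosomal protein genes (dots) in each kidney (x axis) with 75th percentile scaling (left) and quantile normalisation (right); bars are medians of these genes, of the 995 other bright genes and of all genes. Control 3 stands at 0.08 on the left and 0.0034 on the right.

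Where a gene had several probes, the gaps between them were small in log2 units but not beside the differences of the core genes. Among the 51 members with more than 1 kept probe, the median gap between the highest and lowest probe difference was 0.032. The median absolute difference of a core gene was smaller, at 0.020. The probes of 27 genes had the same sign and those of 24 had both signs. Of the 169 probes, 162 lay within 0.1 of 0, and 0 passed over all 32948 probes tested, where 0.0789% of probes did. At an unadjusted p under 0.05 there were 2, those of Rps19bp1 and a dim probe of Rps3, where 11% of all probes were. The Rps3 probe was at 1.55, 1.66 and 1.72 in the controls and 1.49, 1.53 and 1.39 in the knockouts, a difference of -0.18 ± 0.07 (SE; adjusted p = 0.454) with no overlap, while the brighter probe of Rps3 was at 0.03 ± 0.07. This gap of 0.21 was the largest. A second probe of Rps2 read 6.93 in knockout 1 and 6.38 to 6.58 on the other 5 arrays, while its brighter probe read 6.55 in knockout 1. Ribosomal protein genes have many processed pseudogenes, and what share of a probe's signal comes from them was not tested.

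**Figure D4:**
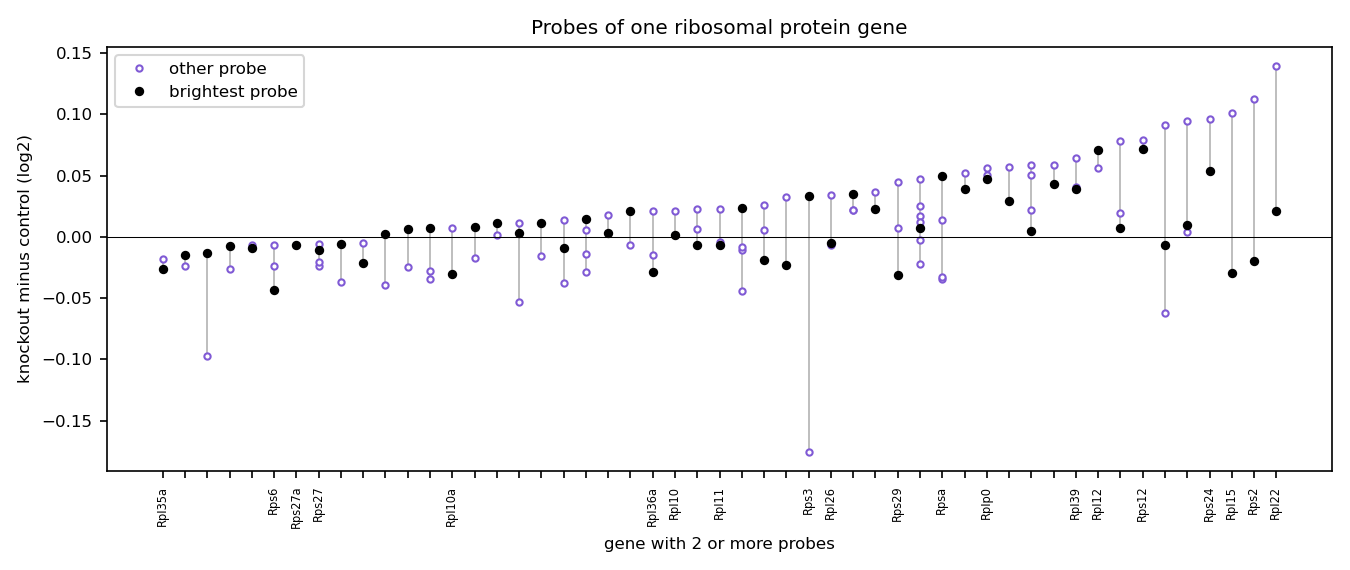
Knockout minus control log2 difference (y axis) of each kept probe for the 51 ribosomal protein genes with 2 or more (x axis; genes the text describes are labelled). Filled dots are the brightest probe, used for the gene, and open dots the others. In most genes the probes span less than 0.1, and Rps3 spans 0.21.

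The 85 genes lie on 19 chromosomes in GRCm38.p6. On chromosome 12, which carries Nampt, the 3 members Rps29, Rpl36al and Rps7 were at -0.03, -0.01 and 0.0026. Among subunit genes whose symbols the rule does not take, Fau, whose product is a fusion of a ubiquitin-like protein with a small subunit protein, was at -0.04 ± 0.06 (SE; adjusted p = 0.822), inside the range of the core genes.

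Other genes of ribosome production were set beside them from lists. For comparison, 12.8% of all genes had an unadjusted p under 0.05, 47.1% were above 0 and the median was -0.0077. Of the 995 other bright genes 33.3% were above 0, with a median of -0.03. In the list of translation elongation factors and other TOP messenger RNAs, 0 of 26 measured genes passed by limma, 2 had an unadjusted p under 0.05, and the median was 0.0065. Snhg1, a host gene of small nucleolar RNAs, was at 0.24 ± 0.08 (SE; adjusted p = 0.332), Hnrnpa1, an RNA-binding protein, at 0.13 ± 0.05 and the initiation factor Eif4b at -0.09 ± 0.06. Blocking on slide row moved Snhg1 to 0.38 and Eif4b to -0.03; Eif4b was also at -0.03 as the mean of its probes and at -0.05 without knockout 3. Of 37 initiation factors and their regulators 0 passed and 5 had an unadjusted p under 0.05, a share near that of all genes (12.8%). Of the 37, 8 were above 0, and the median was -0.03. Eif3j1 and Eif3j2, near-identical copies whose signals may not be separate, were at -0.17 ± 0.05 and -0.20 ± 0.06, and Eif2b4, a subunit of the guanine exchange factor of initiation, at -0.15 ± 0.06, with adjusted p from 0.251 to 0.357. Eif3j2 was at -0.12 when blocking on slide row.

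Of 76 factors that assemble ribosomes 0 passed and 13 had an unadjusted p under 0.05, where 12.8% of all genes did. Of the 13, 11 were lower, where 938 of all 15309 genes were lower at that p. Above 0 were 16 and below it 60, with a median of -0.06, against 47.1% of all genes and 33.3% of the other bright genes above 0. Nop2, which methylates ribosomal RNA, was at 3.34, 3.43 and 3.47 in the controls and 3.19, 3.16 and 3.19 in the knockouts, a difference of -0.23 ± 0.05 (SE; adjusted p = 0.200). The groups did not overlap. Nolc1, a nucleolar chaperone of small nucleolar particles, was at -0.22 ± 0.05 and Noc2l at -0.19 ± 0.05, also without overlap. These 3 were named for their small p, and 10.5% of all genes were lower without overlap. As the mean of its probes Nolc1 was at -0.13. In the list of RNA polymerases I and III 0 of 33 passed and 4 had an unadjusted p under 0.05, with a median of -0.02. Polr1a, the catalytic subunit of polymerase I, was at -0.15 ± 0.05, Polr3e at 0.67 ± 0.19 and Taf1b, a polymerase I initiation factor, at 0.39 ± 0.08, with adjusted p from 0.194 to 0.318. Polr3e was at 0.32 when blocking on slide row, and Taf1b at 0.23 with normexp and quantile normalisation.

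Among 47 regulators around mTORC1, Myc and p53, 0 passed by limma and the median was -0.02. An unadjusted p under 0.05 was found for 5, a share near the 12.8% of all genes. Rragd, a GTPase that brings mTORC1 to the lysosome, was at -2.13, -2.14 and -2.14 in the controls and -2.36, -2.63 and -2.51 in the knockouts, a difference of -0.36 ± 0.08 (SE; adjusted p = 0.189). Castor1, the arginine sensor upstream of mTORC1, was at 0.39 ± 0.11 (adjusted p = 0.264) and Trp53, which encodes p53, at 0.13 ± 0.04 (adjusted p = 0.327). The groups did not overlap for these 3, which were named for their small p, where 19.5% of all genes had groups apart. Rragd was at -0.22 when blocking on slide row, and Trp53 at 0.08 with normexp and quantile normalisation.

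Genes for the proteins of the mitochondrial ribosome, which translates the few messages of mitochondrial DNA, numbered 77 among those tested. Of these 6 were above 0 and 71 below, with a median of -0.06. Above 0 were 51 of the 76 core cytosolic genes, 47.1% of all genes and 33.3% of the other bright genes, whose median was -0.03. By limma 0 of the 77 passed and 6 had an unadjusted p under 0.05, where 12.8% of all genes had one. All 6 were lower, as were 938 of all 15309 genes at that p. Their array medians were -0.06, -0.04 and 0.10 in the controls and -0.09, -0.02 and -0.07 in the knockouts, so control 3 stood highest here too. With quantile normalisation 64 of 77 were below 0 and the median was -0.04. The difference between the 2 families of genes was not tested.

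**Figure D5:**
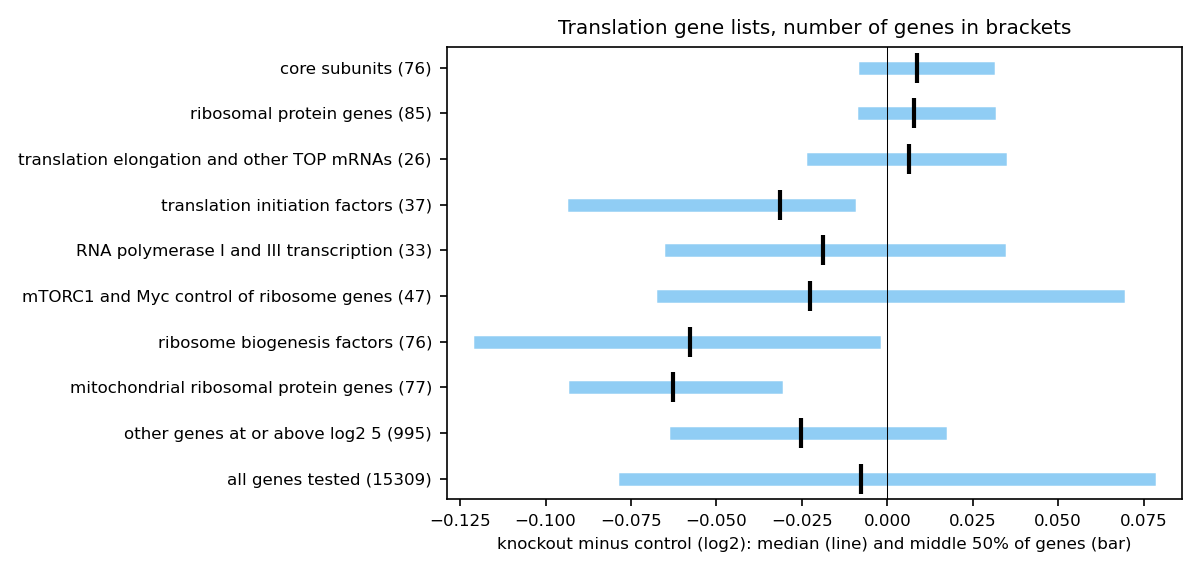
Median (line) and middle 50% (bar) of the knockout minus control log2 differences (x axis) for lists of translation genes (y axis, number of genes in brackets), beside the other bright genes and all genes tested. The core subunits form the narrowest bar, at 0.0088, and the biogenesis factors and mitochondrial ribosomal proteins lie near -0.06.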

How the data were processed

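Spot intensity on a linear scale, with 0 or 1 quality flags, was extracted by the authors using Agilent Feature Extraction 10.7.1.1, as the submitters' processing notes name it. Their deposited value table holds a ratio, equal within 1% to the processed signal over that array's 75th percentile for every probe compared with a ratio above 1. Here outlier spots were dropped, log2 processed signals were averaged per probe, and the 75th percentile was subtracted per array. A probe was kept if well above background throughout at least 1 group. RefSeq accessions named 28026 of 55681 probes, and a gene's brightest kept probe stood for it. Groups were compared in limma 3.58.1 (R 4.3.3), with no covariate. Array positions use mm9, per the file headers, so coordinates are printed for RefSeq's GRCm38.p6 windows alone. The members and gene lists were chosen with earlier results of these data known. Named genes are the 10 members at each end, set paralogue pairs and role genes, Nampt, Fau and the 3 of smallest p per list; some of these are not reported here. Rps2, Rps3, Rps7, Rpl32l and Rpl37rt, the tests of single probes and the paralogue ratios were chosen after values were seen. Alternatives varied scaling, background correction, filter, probe rule, variance model, blocks and the arrays left out. The procedure was tested on simulated data. Figures used matplotlib 3.10.9.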

Additional observations from a re-analysis of the deposited data

How the results depend on the processing

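Under none of 17 alternatives did a ribosomal protein gene pass an adjusted p of 0.05 by limma, and the smallest adjusted p of any member was 0.168, with array weights. Between 0 and 89 of all genes tested passed in these alternatives, so passing by 0 of the 85 says little about them. The median over the 85 genes ran from -0.01 to 0.03 under the alternatives that keep all arrays. It ran from -0.01 without control 1 to 0.05 without control 3, so its sign changed. All these values lay within 0.051 of the main value, which is the pooled SD of the single arrays' medians within groups. That SD is a spread between arrays and not the error of a difference between groups. Over the core subunits alone, chosen after seeing the data, the median was 0.0088 in the main setting. Of the 33 named members 14 kept their sign in every alternative and 19 did not. The count over all genes, 26, was 11 with quantile normalisation, 77 with no filter, 57 with a trended and robust variance, 89 with array weights and 16 with slide row as a block. With the replicate number as a block it was 0 (1636 genes at an unadjusted p under 0.05), so no ribosomal protein gene could pass there. The median over the 85 genes was 0.0079 with that block. The replicate numbers are not known to pair the animals. The deviations of same-numbered arrays correlated at 0.10, -0.10 and -0.03, with 1 of 3 controls closest to its own number. Leaving out 1 array gave 0 to 57 genes, with 57 when knockout 1 was dropped, 1 when knockout 2 or knockout 3 was, and 0 when control 2 or control 3 was (1436 and 1550 by unadjusted p under 0.05). Each time 0 ribosomal protein genes passed, which was fixed in advance where 0 of all genes did. The cause of these changes was not tested. Normexp was run on the median signal of each spot. Scaling sets the typical gene to no change, so a shift of all messenger RNA together would not be seen.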
